A study of Mus musculus with 342 samples.

Results

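CC053/Unc is a recombinant inbred mouse line of the Collaborative Cross, a panel bred from genetically diverse founder strains, and the labels also give it the alias OR773. Its liver response to TAK-875 was measured in 6 male mice, all those labelled with this line among 342 mice of 44 lines. The mice were 8 to 10 weeks old and were treated in pairs of the same line. In each of 3 CC053/Unc pairs, 1 mouse was gavaged with the vehicle, 0.5% methylcellulose, and its partner with a single dose of TAK-875 at 600 mg/kg, and both livers were taken 24 hours later. Each mouse gave 1 Affymetrix HT MG-430 PM array, so the number of arrays limits the precision. The 336 other arrays came from 168 pairs in 43 lines treated the same way, with 4 pairs in each of 39 lines of the panel and 3 pairs in each of 5, CC053/Unc among the latter. The compound is named here as in the sample labels, from which the series title differs in its number. All mice of an inbred line share 1 genotype, so the 3 pairs repeat 1 genetic background. The CC053/Unc pairs carry the study pair numbers 177 to 179, and 179 is the largest in the series, so the line and its place in the study cannot be told apart.

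TAK-875 (fasiglifam) is an agonist of the fatty acid receptor GPR40 that was developed for type 2 diabetes, and its development ended over liver injury. Hepatocytes secrete most plasma proteins, and during inflammation cytokines such as interleukin 6 act through STAT3 and C/EBP factors to raise the acute phase proteins among them. The liver also makes fatty acids and sterols from acetyl-CoA under the SREBP factors, and burns fatty acids in mitochondria and peroxisomes with enzymes that PPARA, a nuclear receptor for fatty acids, controls. These pathways order the account that follows.

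Levels are on a log2 scale, and each of 9093 genes is read through 1 probe set. The 6 arrays carried a liver profile: over 21 measured hepatocyte markers the mean level was 12.47 to 12.53 in the vehicle mice and 12.60 to 12.64 in the TAK-875 mice. The vehicle mice were alike, with a median gene SD of 0.16, the lowest of 44 lines, against a median of 0.22 in the other lines. The TAK-875 mouse of pair 2 stood apart. Its array correlated at 0.896 and 0.904 with those of the other treated CC053/Unc mice, which correlated at 0.982 with each other. The treated arrays' median gene SD was 0.33, and 0.16 without that mouse.

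Pair 2 also held most of the large differences. In pair 2, 1968 genes differed at least 2-fold between the treated mouse and its vehicle partner, 708 higher and 1260 lower, against 431 genes in pair 1 and 285 in pair 3. The median over all 171 pairs of the series was 353 genes. By the SD of its differences over genes, pair 2 was the 6th widest of the 171 pairs, pair 1 the 68th and pair 3 the 109th. Over genes, the differences of pairs 1 and 3 correlated at 0.379, those of pairs 1 and 2 at 0.165 and those of pairs 2 and 3 at 0.187, as a description, since genes are not independent replicates. Set against the 168 pairs of the other lines, pair 2 was most like pair 4 of CC042/GeniUnc, at 0.688, and pair 4 of CC004/TauUnc, at 0.654, while its median correlation with all of them was 0.0113. Those pairs were wide as well, with 2080 and 2581 genes differing at least 2-fold. In 317 genes pair 2 differed at least 4-fold and the other pairs less than 2-fold, 144 of them higher and 173 lower in the treated mouse. They include Atf3, a stress-induced transcription factor, with differences of -0.47, 5.96 and -0.26 in pairs 1 to 3, Pdk4, a kinase that holds back glucose oxidation in fasting, at -0.44, 6.27 and 0.40, and Keg1, a glycine acyltransferase-like gene, at -6.20 in pair 2. No gene of the response passed the test without pair 2, so values by pair or without pair 2 stand beside the lead results.

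**Figure D1:**
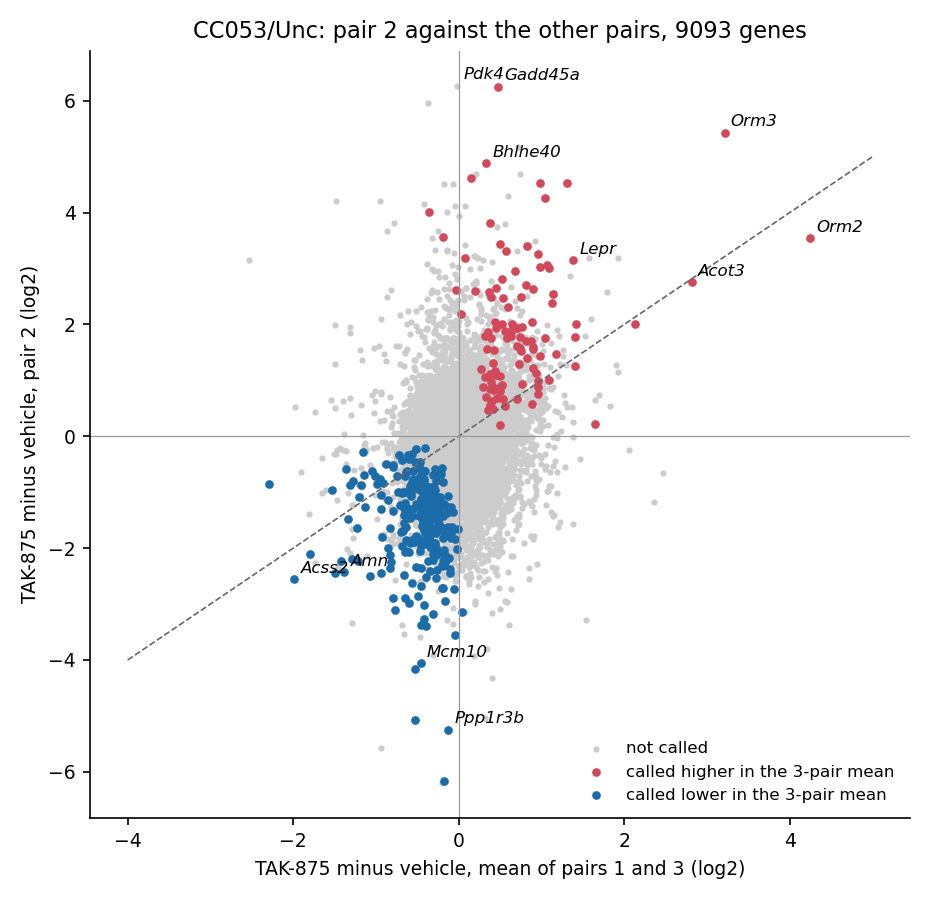
Log2 difference, TAK-875 minus vehicle, of each of 9093 genes in pair 2 on the vertical axis against the mean of pairs 1 and 3 on the horizontal axis, with genes called in the fit coloured by direction and a dashed line where both axes are equal. The cloud is much taller than it is wide: 1968 genes differ at least 2-fold in pair 2, against 431 in pair 1 and 285 in pair 3, and Orm2, Orm3 and Acot3 lie far along both axes.

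The first comparison asks which genes TAK-875 changed in CC053/Unc liver. Among genes called with 1 direction in all 3 pairs, the leading rises were in 2 orosomucoid genes, Orm2 and Orm3, at about 16-fold each. The acyl-CoA thioesterase Acot3 followed, then Gadd45a, Socs3 and S100a8, which had most of their size from pair 2. Next came the haem synthesis enzyme Alas1 and the leptin receptor Lepr. Among the largest falls were those of Acss2, which makes acetyl-CoA from acetate, the water channel Aqp8, the creatine synthesis enzyme Gamt and the liver pyruvate kinase Pklr. In all, 104 genes were called higher (1.14% of those tested) and 267 lower (2.94%), by limma across all 171 pairs at an adjusted p of 0.05. Of these 371, 333 had 1 direction in all 3 pairs, against 3442 of all 9093 genes, and 124 differed at least 2-fold. Treated and vehicle mice did not overlap in 299 of the 371, against 22.7% of all genes. The 371 calls were the 5th largest number among the 44 lines.

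Pair 2 carried much of that count. It held the largest of the 3 differences in 318 of the 371 called genes. Without pair 2 limma called 0 genes, with 614 at an unadjusted p under 0.05 and a smallest adjusted p of 0.0820, in Amn. The direction was the same without pair 2 in 367 of the 371 genes, and 40 differed at least 2-fold there. In limma without pair 2, 147 of the 371 had an unadjusted p under 0.05, against 614 of all 9093 genes. The 371 were chosen by a fit that included the other pairs, so such agreement is partly built in. These counts are therefore no independent check. With the CC053/Unc pairs fitted alone, limma also called 0 genes, with 596 at an unadjusted p under 0.05. As a set, the calls therefore rest on pair 2 and on the spread pooled over all lines. In Orm2, Acot3 and Alas1, however, another pair held the largest difference, though they too were not called without pair 2.

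Orm2 and Orm3 encode orosomucoids (alpha-1-acid glycoproteins), abundant acute phase proteins that hepatocytes secrete. They are near-copies that lie next to each other on chromosome 4, their starts 6291 bases apart, and whether their probes tell them apart was not tested; Orm1 was not analysed here. The 250 bases before each start, from RefSeq with the coordinates of GRCm38.p6, are shown because the pair moved together; Orm2 is chr4:63362199-63362448 and Orm3 chr4:63355908-63356157, both on the plus strand. Capitals mark the match to TTGCNCAA, a C/EBP-type motif that was picked after the values were seen and searched on both strands.
Orm2: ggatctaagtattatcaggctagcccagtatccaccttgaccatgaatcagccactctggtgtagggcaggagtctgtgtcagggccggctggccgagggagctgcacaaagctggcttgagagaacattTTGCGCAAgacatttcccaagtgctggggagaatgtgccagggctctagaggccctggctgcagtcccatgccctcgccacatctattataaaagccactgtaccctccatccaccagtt
Orm3: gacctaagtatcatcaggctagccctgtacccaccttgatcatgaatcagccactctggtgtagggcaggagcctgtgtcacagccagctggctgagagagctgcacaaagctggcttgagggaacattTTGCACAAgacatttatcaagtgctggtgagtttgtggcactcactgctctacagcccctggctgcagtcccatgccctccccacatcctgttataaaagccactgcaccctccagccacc
The promoters share runs of up to 32 identical bases, and each holds 1 match, which begins 120 bases before the start in Orm2 and 121 in Orm3. Of all 32851 promoters of this length, 2.61% hold the motif. Among acute phase genes with a promoter in the table, 8 of 28 hold it, Orm2 and Orm3 among them. So do 3 of 14 cholesterol synthesis genes, a description and not a site of binding. The STAT-type motif TTCNNNGAA, which 7.02% of all promoters and 8 of the same 28 hold, has no match in these 2 windows. Nor have TTACNNAA, CACCCCAC and CACNCCAC, which were searched too, and the narrower TTGCGCAA matches in Orm2 alone.

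Orm2 stood at 5.60, 6.24 and 5.69 in the vehicle mice of pairs 1 to 3 and at 10.47, 9.77 and 9.30 in their TAK-875 partners. All treated mice lay far above all vehicle mice, in pair 2 no more than in the others. The difference was 4.01 ± 0.75 (SD, n = 3 pairs), a 16.1-fold rise (SE of the fit 0.89, adjusted p = 0.0059). Without pair 2 it was 4.24, or 18.9-fold, with an unadjusted p of 0.00018 and an adjusted p of 0.257. Orm3 stood at 4.68, 4.44 and 4.84 with vehicle and at 7.68, 9.87 and 8.26 with TAK-875. Again the groups did not overlap, and here the treated mouse of pair 2 was the highest. The difference was 3.95 ± 1.30 (SD, n = 3 pairs), a 15.5-fold rise (SE 0.76, adjusted p = 0.001), and 9.27-fold without pair 2.

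**Figure D2:**
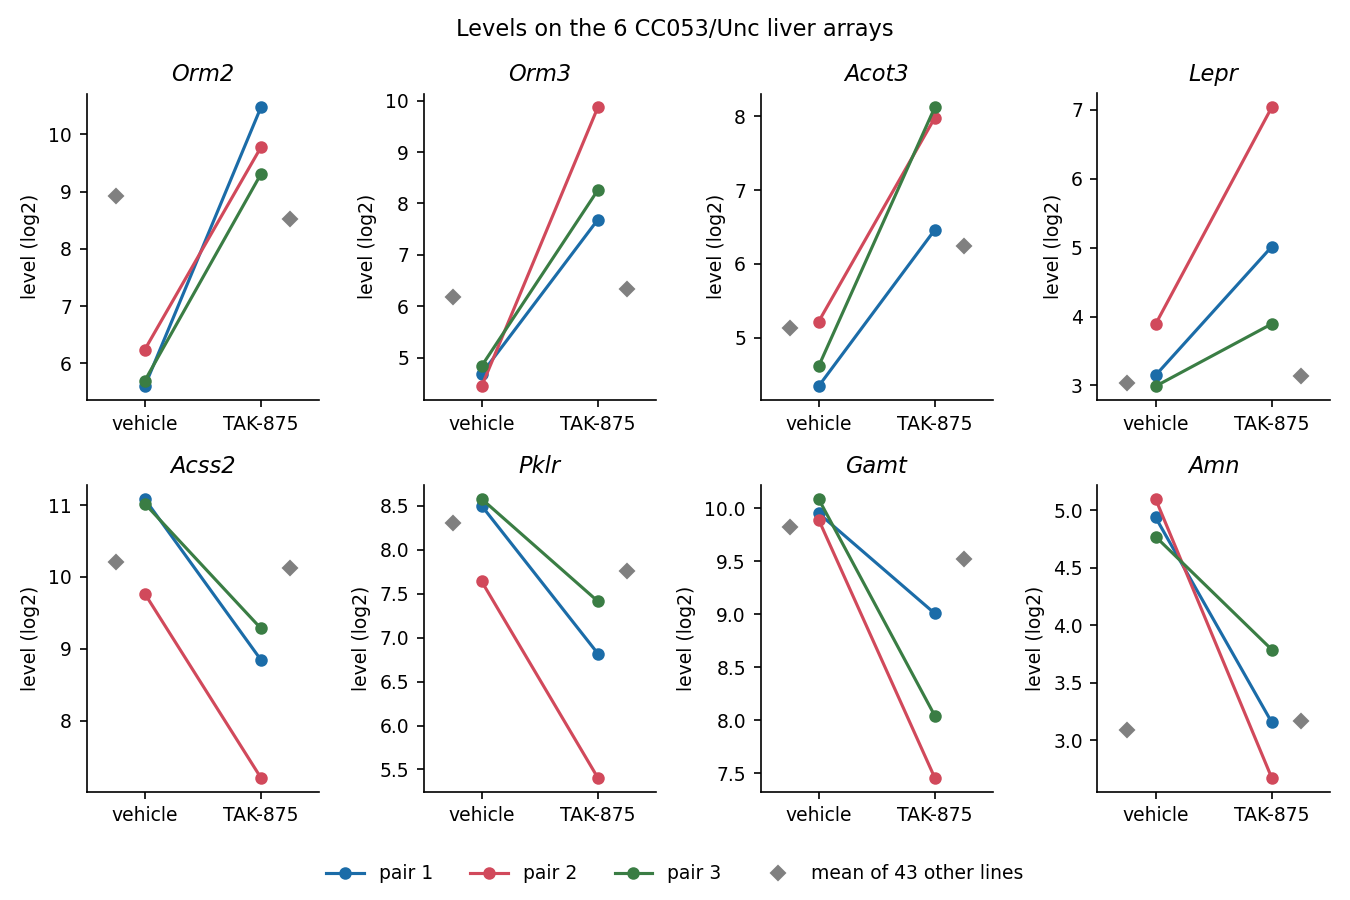
Log2 level of 8 genes in each CC053/Unc mouse, vehicle on the left and TAK-875 on the right of each panel, with lines joining the mice of a pair and grey diamonds for the mean of the other 43 lines. Orm2, Orm3, Acot3 and Lepr go up in all 3 pairs and Acss2, Pklr, Gamt and Amn go down in all 3, and in Orm2 the vehicle mice lie at 5.60 to 6.24, below the other lines' mean of 8.93.

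Few other acute phase genes passed the test. In the list of 34 measured genes, 5 were called higher and 1 lower, against 1.14% and 2.94% of all genes. Besides Orm2 and Orm3 they were Fga, the fibrinogen alpha chain, at 0.53 (adjusted p = 0.0083), Socs3, an inhibitor of cytokine signalling that STAT3 induces, at 2.16 (adjusted p = 0.017), and S100a8, a calcium-binding protein of myeloid cells, at 2.11 (adjusted p = 0.03). The gene that fell was the interferon-induced membrane protein Ifitm3, at -0.57 (adjusted p = 0.015). The list's median difference was 0.38, and 0.37, 0.75 and 0.19 in pairs 1 to 3, against -0.05 over all genes. It was 0.27 without pair 2, when 7 members had an unadjusted p under 0.05.

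Socs3 stood at 2.94, 3.08 and 3.33 with vehicle and at 4.11, 7.60 and 4.13 with TAK-875. The groups did not overlap, but the treated mouse of pair 2 was far above the others, and without pair 2 the difference was 0.98 (unadjusted p = 0.13). S100a8 had the same shape, at 3.18, 3.77 and 3.54 with vehicle and 4.32, 8.03 and 4.47 with TAK-875, and its probe set may also bind related transcripts. Over the 8 measured neutrophil markers, S100a8 among them, the mean level was 4.52 to 4.58 with vehicle and 4.71 to 6.09 with TAK-875. Their mean differed by 0.30, 1.50 and 0.19 in pairs 1 to 3, with S100a8 alone called and the granule protein gene Ngp at 0.31 (not called). In whole liver, more cells of a type and more RNA per cell cannot be told apart, and the part of neutrophils in the S100a8 difference was not tested. Hamp, the iron hormone hepcidin, differed in opposite directions between pairs: it stood at 9.07, 6.96 and 6.72 with vehicle and at 6.76, 12.13 and 10.48 with TAK-875, so that the groups overlapped and it was not called (2.20, adjusted p = 0.07).

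Some genes of fatty acid handling also rose. Of 46 measured PPARA targets, 7 were called higher and 0 lower, with 26 at an unadjusted p under 0.05 in limma, against 1.14% called higher and 1876 at that p among all 9093 genes. The list's median was 0.46, and 0.41, 0.64 and 0.37 in pairs 1 to 3, and 0.37 without pair 2, when 16 members had an unadjusted p under 0.05. In the other lines the median was 0.26, and CC053/Unc ranked 3rd of 44, or 11th without pair 2. The 7 were Acot3, Eci2, which handles unsaturated fatty acids in beta-oxidation, the carnitine carriers Slc25a20 and Slc22a5, the lipid droplet coat Plin2, the carnitine acetyltransferase Crat and the fatty acyl-CoA synthetase Slc27a2.

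Acot3 stood at 4.34, 5.22 and 4.61 with vehicle and at 6.46, 7.98 and 8.12 with TAK-875. The groups were well apart, and pair 3 held the largest difference. The mean difference was 2.80 ± 0.70 (SD, n = 3 pairs; SE 0.80, adjusted p = 0.03), and it was not called without pair 3 (adjusted p = 0.108). Its probe set may also bind other members of its family. Its neighbour in function Acot1 differed by 2.34 and missed the threshold (adjusted p = 0.056). Eci2 rose by 1.02, 1.23 and 0.78 in pairs 1 to 3 (adjusted p = 0.012) and Slc27a2 by 0.61, 0.66 and 0.46 (adjusted p = 0.015), both with no overlap between groups. The differences were 0.85 for Ehhadh, the peroxisomal bifunctional enzyme (adjusted p = 0.057), 1.30 for Vnn1, a pantetheinase (adjusted p = 0.072), 0.82 for Cpt1a, the gatekeeper of mitochondrial import (adjusted p = 0.072), 0.34 for Cyp4a10, an omega-hydroxylase (adjusted p = 0.43), and 0.62 for Pctp, a phosphatidylcholine transfer protein (adjusted p = 0.17). None of these 5 passed the test.

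Of 28 measured CAR and PXR targets, the genes of drug-sensing receptors, 2 were called higher (1.14% of all genes were) and 0 lower, and the median was 0.02, or -0.02 without pair 2. Cyp3a13, a drug-oxidising cytochrome, rose by 1.08, 1.46 and 1.28 in pairs 1 to 3 (adjusted p = 0.025). Alas1, the rate-limiting enzyme of haem synthesis, stood at 9.02, 10.26 and 7.53 with vehicle and 9.83, 12.26 and 10.97 with TAK-875. It rose in every pair, by 0.80, 2.00 and 3.45, but the groups overlapped because the vehicle mouse of pair 2 lay above the treated mouse of pair 1. Its mean rise of 2.08 (SE 0.58, adjusted p = 0.027) was not called without pair 3 (adjusted p = 0.22).

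Lepr, the leptin receptor, had the smallest adjusted p of the response. It stood at 3.15, 3.89 and 2.99 with vehicle and at 5.01, 7.04 and 3.89 with TAK-875. The treated mice spread widely, and the lowest of them was level with the highest vehicle mouse. The rise was 1.97 (SE 0.28, adjusted p = 5.7e-07), or 3.93-fold, and 2.61-fold without pair 2 (adjusted p there 0.104). By pair it was 1.87, 3.15 and 0.90, a wide spread, whereas the SE comes from the spread pooled over all lines. The vehicle levels lie low on a scale that begins at 1.62, as does the other lines' vehicle mean of 3.04. Detection was not tested, so the folds of Lepr are approximate, and its p may overstate how certain the rise is. Its other 2 probe sets gave 2.31 and 2.33 but rested on pair 2, with differences of 0.92, 5.53 and 0.48 and of 0.70, 6.04 and 0.26 in pairs 1 to 3. The arrays cannot tell its splice forms, which include a secreted receptor, apart from one another here.

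The rest of the 15 largest rises shared the lead of pair 2. Gadd45a, a growth arrest gene that p53 and stress kinases induce, stood at 4.73, 4.04 and 4.99 with vehicle and 5.37, 10.29 and 5.30 with TAK-875. Bhlhe40, a transcriptional repressor of the clock, stood at 7.53, 6.84 and 7.83 with vehicle and 7.89, 11.72 and 8.14 with TAK-875. In both genes pair 2 made nearly the whole difference, which without it was 0.48 for Gadd45a and 0.33 for Bhlhe40. Tmed5, of vesicle transport out of the endoplasmic reticulum, rose by 1.73, the phosphatase Ptp4a1 by 1.72, the phosphate carrier Slc20a1 by 1.69 and Suco, a protein of the endoplasmic reticulum, by 1.67. These 4 had differences of 0.59 to 1.19 in pairs 1 and 3 and of 3.01 to 3.40 in pair 2. Psat1, of serine synthesis, rose by 1.73 and was not called without pair 3 (adjusted p = 0.084). Rif1, of DNA replication timing, rose by 1.86, 2.01 and 0.98 in pairs 1 to 3 and was not called without pair 1 (adjusted p = 0.073).

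Acss2 and Pklr, which belong to the list of fatty acid and triglyceride synthesis genes below, were among the largest called falls. Acss2 stood at 11.08, 9.77 and 11.02 with vehicle and at 8.85, 7.21 and 9.29 with TAK-875. Each treated mouse was below every vehicle mouse, and the 3 differences were close, at -2.24, -2.56 and -1.73. The mean was -2.18 ± 0.42 (SD, n = 3 pairs; SE 0.61, adjusted p = 0.027), a 4.52-fold fall, 3.96-fold without pair 2, and it was not called without pair 1 (adjusted p = 0.066). Pklr, the last step of glycolysis in hepatocytes, stood at 8.50, 7.64 and 8.58 with vehicle and at 6.82, 5.41 and 7.41 with TAK-875. The groups did not overlap, and the fall was 3.23-fold (-1.69, SE 0.32, adjusted p = 0.00071) and 2.68-fold without pair 2, with its 3 probe sets at -1.69, -1.48 and -1.03.

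In the list of 25 measured fatty acid and triglyceride synthesis genes, 3 were called lower and 0 higher, against 2.94% of all genes lower. They were Acss2, Pklr and Dgat2, which makes triglyceride, at -0.37 (adjusted p = 0.04) and -0.21 without pair 2. The list's median was -0.33, the 38th of 44 lines, and -0.24 without pair 2. Of 29 NRF2 targets, also 3 were called lower and 0 higher, and these are the enzymes of the pentose phosphate pathway, a source of NADPH for lipid synthesis: Pgd at -0.98, Taldo1 at -0.63 and Tkt at -0.62, or -0.94, -0.45 and -0.55 without pair 2. In each of these 3 the groups did not overlap. The probe sets of Pgd and Tkt may cross-hybridize to other transcripts.

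In cholesterol synthesis the treated mice were mostly lower, although no single member passed. Of 17 measured genes, 0 were called in limma and 7 had an unadjusted p under 0.05, and 3 had one without pair 2. Over all 9093 genes these counts were 1876 and 614. The list's median difference was -0.80, and -0.92, -1.48 and -0.32 in pairs 1 to 3, and -0.62 without pair 2. The mean response of the other lines had a median of 0.34, though in 8 of the 43 lines the list's median was below 0. CC053/Unc ranked last of 44 with all pairs and 43rd without pair 2, above CC042/GeniUnc at -0.73. In 12 of the 17 all 3 treated mice were below their partners, as in 1908 of all 9093 genes. Dhcr7, the last enzyme of the pathway, stood at 10.27, 9.64 and 10.43 with vehicle and at 8.74, 7.56 and 9.34 with TAK-875. Its groups did not overlap, and the difference was -1.57 (adjusted p = 0.0502). The differences were -1.97 in Mvd (adjusted p = 0.19), -1.74 in Nsdhl (adjusted p = 0.11), -1.37 in Mvk (adjusted p = 0.11) and -1.12 in Cyp51 (adjusted p = 0.34), and in these 4 the groups overlapped. With the pairs of other lines that held a poorly correlating array left out, a setting chosen after seeing the data, 3 of the 17 were called lower.

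**Figure D3:**
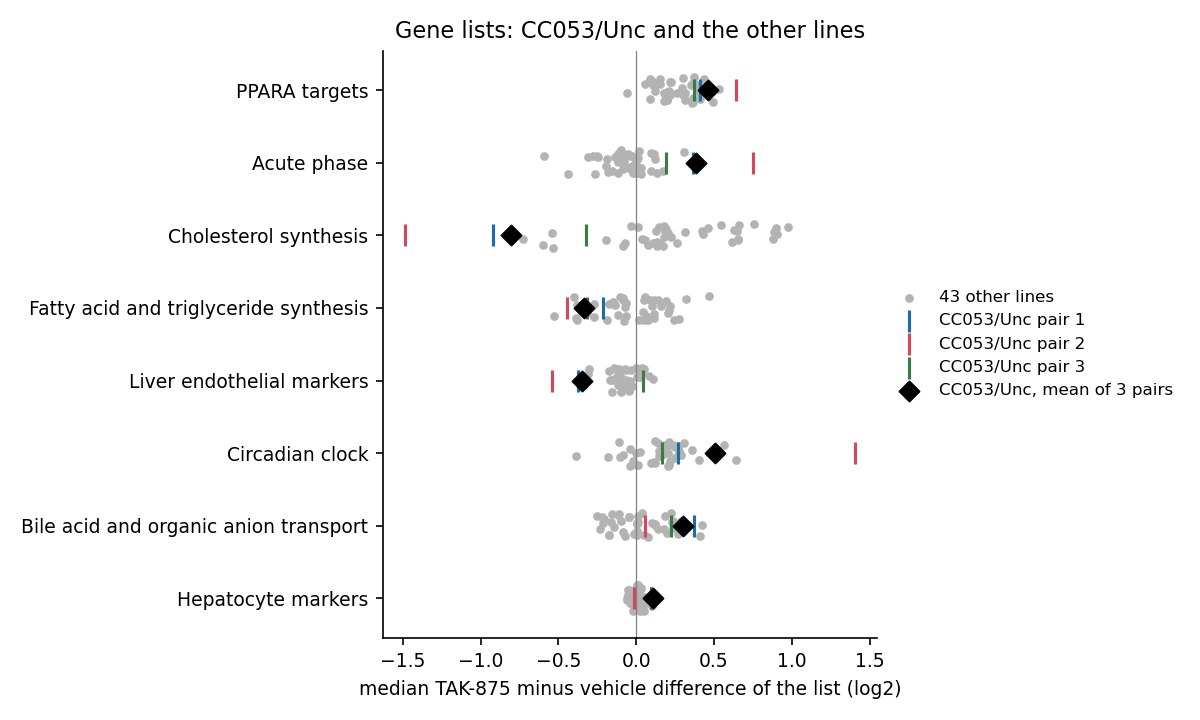
Median log2 difference, TAK-875 minus vehicle, of the genes of 8 lists in CC053/Unc, as bars for pairs 1 to 3 and a diamond for their mean, with 1 grey point for each of the other 43 lines. Cholesterol synthesis lies below 0 in all 3 pairs (-0.92, -1.48 and -0.32) and at 0.34 in the other lines' mean, and PPARA targets lie above 0 in all 3 (0.41, 0.64 and 0.37).

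Other large falls were in unrelated functions. Aqp8, a water and peroxide channel of the canalicular and inner mitochondrial membranes, fell by similar amounts in every pair, -1.69, -2.11 and -1.90 (adjusted p = 0.022). Gamt, which makes creatine, stood at 9.95, 9.89 and 10.09 with vehicle and at 9.01, 7.46 and 8.04 with TAK-875. The vehicle mice lay close together and all treated mice lay below them, a 3.50-fold fall (-1.81, SE 0.36, adjusted p = 0.0019) and 2.82-fold without pair 2. Amn, the partner of cubilin in endocytosis, stood at 4.94, 5.10 and 4.77 with vehicle and at 3.15, 2.67 and 3.79 with TAK-875. It had the smallest adjusted p of the falls (-1.73, SE 0.26, adjusted p = 2.9e-06), and without pair 2 the difference was -1.38. By pair the differences were -1.78, -2.43 and -0.98, while the SE comes from the spread pooled over all lines. The treated levels of Amn and the other lines' vehicle mean of 3.09 lie low on a scale that begins at 1.62. Detection was not tested, so its p may overstate how certain the fall is. Tmie (-1.74, from a probe set that may cross-hybridize) and the replication factor Mcm10 (-1.66) fell mainly in pair 2, by -4.16 and -4.05 there. Npas2, a clock activator, fell by 1.59, the uncharacterised 1810034E14Rik by 1.55 and Tspyl4 by 1.81, and these 3 were not called without pair 1 (adjusted p = 0.056, 0.074 and 0.119), nor Tspyl4 without pair 3 (adjusted p = 0.217).

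Bile acid genes, of interest because TAK-875 is known to inhibit bile acid transporters, gave few calls. Of 20 measured bile acid synthesis genes, 2 were called lower and 0 higher, against 2.94% of all genes lower. These were Baat, which conjugates bile acids, at -0.27, -1.84 and 0.17 in pairs 1 to 3, and Hsd3b7 at -0.08, -1.36 and -0.20. Both rest on pair 2, without which they were at -0.05 and -0.14. Cyp8b1, which sets the share of cholic acid, differed by -1.25, -1.01 and -2.05 and missed the threshold (adjusted p = 0.052), as did Cyp7a1, the first enzyme of the classic pathway, at -1.12 (adjusted p = 0.54). Of 19 measured bile acid and organic anion transporters, 0 were called in limma, with 8 at an unadjusted p under 0.05, against 1876 of all 9093 genes. The differences were 0.01 in Abcb11, the bile salt export pump (adjusted p = 0.99), 0.72 in Abcb4, the phospholipid flippase (adjusted p = 0.14), -0.02 in Abcc2 (adjusted p = 0.98), -0.07 in Abcc3 (adjusted p = 0.92) and 0.15 in Slc10a1, the uptake carrier NTCP (adjusted p = 0.71). The anion carrier Slc22a7 was lower in every pair, at -1.58, -1.40 and -2.04, with no overlap between groups, and missed the threshold (-1.67, adjusted p = 0.058).

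Among markers of other liver cells, few passed. Of 18 measured endothelial markers, 3 were called lower and 0 higher, against 2.94% of all genes lower: the sinusoidal lectin Clec4g at -0.77 (adjusted p = 0.0042), the scavenger receptor Stab2 at -0.75 (adjusted p = 0.019) and the nuclease Dnase1l3 at -0.67 (adjusted p = 0.033). The list's mean level was 6.69 to 6.79 with vehicle and 6.47 to 6.59 with TAK-875, and its median difference was -0.37, -0.54 and 0.04 in pairs 1 to 3. Without pair 2 the difference was -0.36 in Clec4g (unadjusted p = 0.058), -0.87 in Stab2 (unadjusted p = 0.0003) and -0.64 in Dnase1l3 (unadjusted p = 0.0077). Of 19 Kupffer cell and macrophage markers 0 were called in limma, with 1 at an unadjusted p under 0.05, against 1876 of all 9093 genes. Sox9, of bile duct cells and of injured hepatocytes, was the 1 of 5 cholangiocyte markers called, at -0.64, 4.00 and -0.09 in pairs 1 to 3. Of all genes, 1.14% were called higher. Of 17 measured periportal hepatocyte genes, 2 were called lower, Cyp2f2 at -0.57, -0.61 and -0.70 (adjusted p = 0.0072) and Aldh1b1 at -0.48, -2.44 and -1.39 (adjusted p = 0.019), and the list's median was -0.07. Of 20 measured pericentral genes, 1 was called lower, Slc1a2, and the median was -0.34, the 43rd of 44 lines, or -0.15 and 33rd without pair 2.

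Stress and clock lists gave few calls. In the integrated stress response, 2 of 28 measured genes were called higher, against 1.14% of all genes. They were Psat1 and Ddit3, which encodes CHOP, the latter at 0.40, 3.18 and -0.24 in pairs 1 to 3. In the unfolded protein response, 1 of 32 was called lower, near the 2.94% of all genes: Ern1, the sensor IRE1, at -0.28, -3.39 and -0.52. The calls of Ddit3 and Ern1 have their size from pair 2. In the clock list, 1 of 20 was called higher, Bhlhe40, and 2 lower, Npas2 and the kinase gene Csnk1d (-0.21, -1.73 and 0.03 in pairs 1 to 3, adjusted p = 0.0083). Dbp differed by 3.34, 2.09 and -0.14 (adjusted p = 0.27) and Arntl by -1.17, -1.89 and -0.43 (adjusted p = 0.11), and neither passed. The deiodinase Dio1, at -1.19, -0.26 and -1.54 in pairs 1 to 3 (adjusted p = 0.59), and the cortisol carrier Serpina6 at -0.41 (adjusted p = 0.67) did not pass either.

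The second comparison asks where this response differs from that of the other 43 lines. Orosomucoids led it again: the other lines' mean response was -0.41 in Orm2 and 0.15 in Orm3, against 4.01 and 3.95 in CC053/Unc. The response of CC053/Unc was higher than the other lines' mean in 22 genes (0.242% of those tested) and lower in 72 (0.792%). This comparison and the first use the same CC053/Unc arrays, so they are given side by side. Without pair 2, limma called 0 genes here, with 420 at an unadjusted p under 0.05 and a smallest adjusted p of 0.0788. With arrays centred on their medians, 21 were higher and 41 lower, which takes the share of higher calls from 23.4% to 33.9%.

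For Orm2 the mean responses of the other lines ran from -2.75 to 1.55, and CC053/Unc, at 4.01, lay 2.46 above the next line. The difference from their mean was 4.42 (SE 0.90, adjusted p = 0.0032). For Orm3 the gap to the next line was 1.95 and the difference 3.80 (adjusted p = 0.0027). The levels behind these responses were not extreme in the treated mice. With TAK-875, CC053/Unc was 6th of 44 lines in Orm2, where the other lines averaged 8.52, and 8th in Orm3. With vehicle, it was 42nd in Orm2, where the other lines averaged 8.93 and ran from 5.33 to 12.06, and 35th in Orm3. The same vehicle arrays enter the response and the vehicle level.

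**Figure D4:**
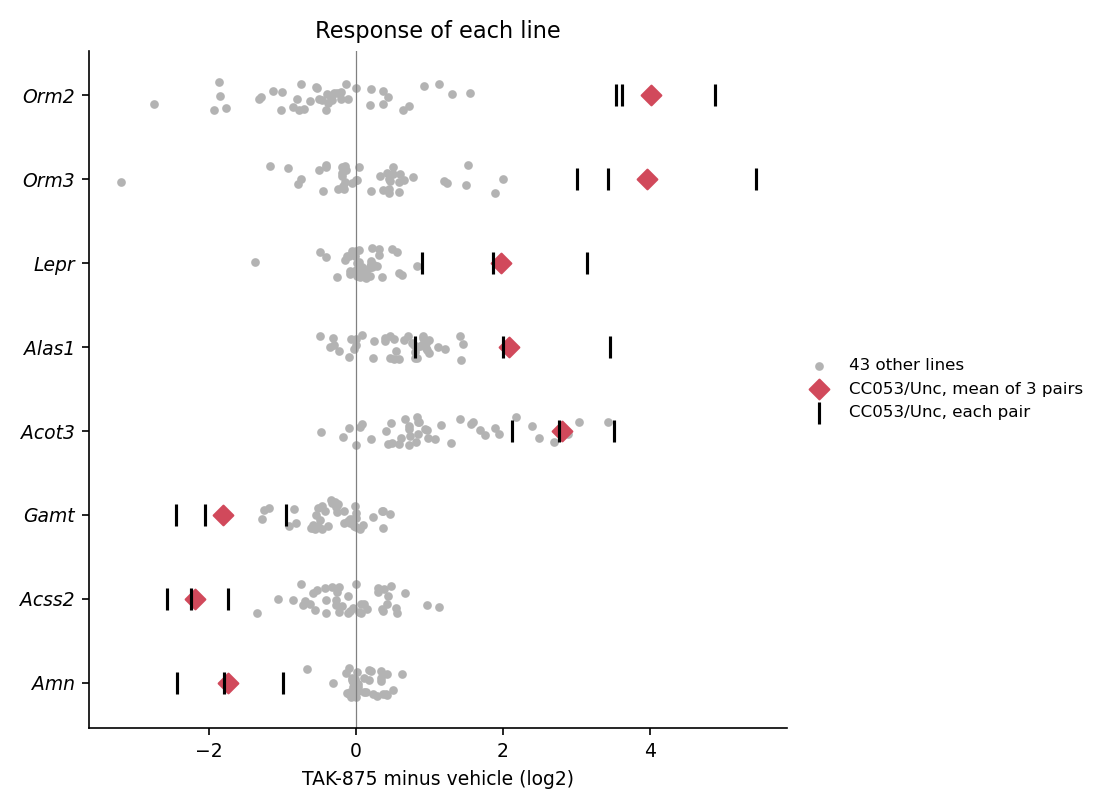
Mean log2 response (TAK-875 minus vehicle) in 8 genes, with 1 grey point for each of the other 43 lines, black bars for the CC053/Unc pairs and a red diamond for their mean. CC053/Unc lies 2.46 above the next line in Orm2, 1.95 in Orm3 and 1.14 in Lepr, and is the lowest line in Amn and Gamt.

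The smallest adjusted p-values against the panel were those of Amn and Lepr. They use the spread pooled over all lines, and in the other lines both genes lie low on the scale with vehicle. Lepr rose by 1.87 more than in the other lines (adjusted p = 2.4e-06), whose mean response was 0.10, and its level with TAK-875 was the highest of 44 lines. Amn fell where the other lines had a mean of 0.08, and it differed from them by -1.81 (adjusted p = 1.6e-06). Its vehicle level in CC053/Unc was 1.85 above the other lines' mean of 3.09, so its treated level, 14th of 44 lines, lay near theirs. With the 10 lines nearest in study pair number as the comparison in place of all 43, Orm2, Orm3, Asic5, Lepr and Amn were the only genes of the 16 named here that passed.

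Asic5, a sodium channel activated by bile acids, stood at 4.72, 4.48 and 7.12 with vehicle and at 7.94, 9.01 and 6.51 with TAK-875. It was higher in the treated mice of pairs 1 and 2 and lower in that of pair 3, and the groups overlapped. Its difference from the other lines was 2.26 (adjusted p = 0.00054). The rest of the 8 largest differences upward were in Gadd45a (2.23), Socs3 (2.16), Bhlhe40 (1.78) and Rif1 (1.58). Besides that of Amn, the largest downward were in Ppp1r3b (-1.75), Mcm10 (-1.71), the histone gene H4c9 (-1.53), Gamt (-1.51), the endosomal protein gene Plekhf1 (-1.49), Mmab of cobalamin handling (-1.47) and Tada3 of histone acetylation (-1.39). Ppp1r3b, which targets a phosphatase to glycogen, stood at 9.11, 9.33 and 8.74 with vehicle and 8.60, 4.09 and 8.98 with TAK-875, so that its call rests on the treated mouse of pair 2 alone.

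Of the lists, acute phase held 4 genes with a larger rise than the panel (Orm2, Orm3, Fga and Socs3) of 34, against 0.242% of all genes, and its CC053/Unc median ranked 1st of 44 lines, or 2nd without pair 2. In 89 of the 104 genes called higher and 208 of the 267 called lower in CC053/Unc, the other lines' mean had the same direction. How often this holds over all genes was not counted, so these shares have no background here. PPARA targets held 0 genes that differed from the panel in limma. Of its 46 genes 7 had an unadjusted p under 0.05, against 1605 of all 9093 genes, a similar share. Cholesterol synthesis also held 0, with 8 of 17 at an unadjusted p under 0.05, and Dhcr7 came nearest (-1.74, adjusted p = 0.054).

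The third comparison asks how CC053/Unc liver differs from the other lines before any drug. Vehicle mice of CC053/Unc had more Mogat1 and Lpin1, both of triglyceride synthesis, and more of several glucocorticoid-induced genes, and less hepcidin, Orm2 and endoplasmic reticulum chaperones. Of all genes, 1901 were called higher than the mean of the other lines (20.9%) and 691 lower (7.6%). The median over all genes was 0.10, so the split leans high, and with arrays centred on their medians it became -0.05, with 918 higher and 1244 lower. The share of higher calls was thus 73.3% as deposited, 42.5% centred and 58.5% after quantile normalization. These calls test 3 mice of 1 line against the spread between mice. Against the spread between lines, 27 genes were called, 18 higher and 9 lower.

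Mogat1, a monoacylglycerol acyltransferase, stood at 6.85, 6.52 and 6.26 in the vehicle mice, where the other lines averaged 3.72 and ran from 3.00 to 5.52. All 3 mice lay above every other line's mean, and the difference of 2.83 was also called against the spread between lines (adjusted p = 0.00059). Lpin1, a phosphatidate phosphatase that glucocorticoids and fasting induce, stood at 9.36, 9.32 and 8.81, and the other lines averaged 6.66 with a highest mean of 8.43. It was the highest line, by a difference of 2.50, though not against the spread between lines (adjusted p = 0.18). Under TAK-875 neither was called, with differences of -0.43 and -0.74.

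**Figure D5:**
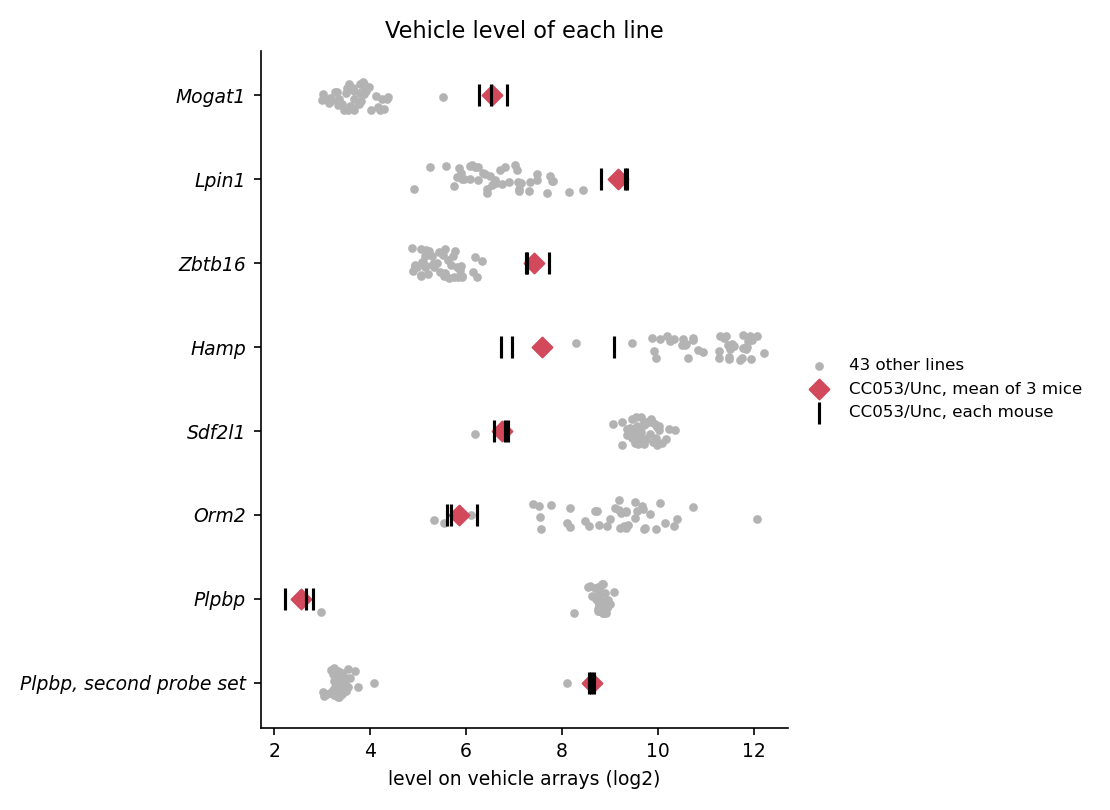
Vehicle log2 level of 7 genes, 1 of them by 2 probe sets, with 1 grey point for the mean of each of the other 43 lines, black bars for the 3 CC053/Unc vehicle mice and a red diamond for their mean. The CC053/Unc mice lie above all other line means in Mogat1 (6.26 to 6.85 against at most 5.52), and the 2 probe sets of Plpbp point in opposite directions in CC053/Unc and in 1 other line.

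Glucocorticoid targets were often called higher. Of 18 measured, 8 were called higher and 0 lower, against 20.9% of all genes higher. With arrays centred 8 were higher and 1 lower, against 918 of all 9093 genes higher. The median was 0.72, and 0.57 centred. The 8 were Lpin1, Zbtb16 (1.95), Igfbp1 (1.85), Cdkn1a (1.30), Ddit4 (1.25), Per1, Klf9 and Tsc22d3 (0.85). Zbtb16, a transcription factor that glucocorticoid receptor induces, lay 1.08 above the next line. With TAK-875 1 of the 18 was called lower, against 2.94% of all genes: Tsc22d3 (GILZ), at -0.60, -2.68 and -0.32 in pairs 1 to 3 (adjusted p = 0.024). Pericentral hepatocyte genes were also often higher, 9 of 20 and 0 lower with a median of 0.34, but 4 higher and 1 lower after centring. Slc13a3, a dicarboxylate carrier, was 1.54 higher and the highest of the lines, and the glutamate carrier Slc1a2 was 0.98 higher and then fell with TAK-875 (-0.91, adjusted p = 0.025).

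Some acute phase genes and endoplasmic reticulum chaperones were lower. Of 34 measured acute phase genes 9 were called lower and 3 higher, against 7.6% of all genes lower as deposited. After centring 13 were lower and 3 higher, against 1244 of all 9093 genes lower. The list's median was 0.00 as deposited and -0.14 centred, so the list as a whole did not lie low. Hamp stood at 9.07, 6.96 and 6.72, where the other lines averaged 11.07 and ran from 8.29 to 12.21, a difference of -3.48 that was also called against the spread between lines (adjusted p = 0.045). Its near-copy Hamp2 was 2.59 higher, but its probe set may cross-hybridize to other transcripts. Orm2 was lower by 3.08 (-3.08, adjusted p = 0.001) and not against the spread between lines (adjusted p = 0.35). In the unfolded protein response, 9 of 32 were called lower and 1 higher, and 11 lower and 0 higher centred. Sdf2l1, a chaperone partner in the endoplasmic reticulum, stood at 6.81, 6.58 and 6.86 against 9.63 in the other lines (-2.88, adjusted p = 0.015 against the spread between lines), while CC052/GeniUnc lay lower still, at 6.19. Derl3 was at -1.58 and Hyou1 at -1.45.

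The remaining large differences were in genes with no shared function. Higher were Pttg1 (securin, 3.94), the collagen chain Col5a2 (3.67), the glycosyltransferase Ugt3a2 (3.22), the cyclin Ccnf (2.52) and H4c9 (2.49). Lower were the methyltransferase Inmt (-3.63), the protease inhibitor A2ml1 (-3.45), the protease Ctse (-2.81) and the mitochondrial protein gene Prelid2 (-2.79). Among these 9 the largest adjusted p was 6.1e-11, in Ctse, against the spread between mice and not between lines. CC053/Unc was the highest line in Pttg1, Ccnf and H4c9. Other lines' means went beyond that of CC053/Unc in Col5a2 (up to 9.32) and Ugt3a2 (up to 11.64). They did so too in Inmt (down to 6.39), A2ml1 (3.09), Ctse (3.26) and Prelid2 (3.48), so these levels are not particular to CC053/Unc. The largest value was in Plpbp, a pyridoxal phosphate-binding protein, at 2.80, 2.66 and 2.21 against 8.66 in the other lines (-6.10). Its other probe set, however, differed by 5.15 in the opposite direction, so no direction can be given for Plpbp. In CC032/GeniUnc the same 2 probe sets stood at 2.97 and 8.09, so that this line alone shared the pattern. Sequence differences between the lines under the probes were not tested, for Plpbp or for the rest.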

How the data were processed

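Whole-liver RNA was hybridized to Affymetrix HT MG-430 PM arrays, 1 per mouse. The deposited table holds log2 expression values per probe set, which the authors made by RMA, per the submitters' processing notes. These also name Affymetrix Power Tools, with tool versions not given in the sources used here. RMA corrects background, normalizes arrays and summarises the probes of a set. Values ran from 1.62 to 13.81, and CC053/Unc array medians from 6.01 to 6.20. No filter on detection was applied, because scanner signals were not used here.

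Of 16397 probe sets, 13083 name 1 gene in the platform table, 261 several and 3053 none, and only the first were used. Each of 9093 genes was read through the brightest of its probe sets, by the mean of all arrays. Affymetrix suffixes mark 349 of these as open to cross-hybridization and 611 as shared by related transcripts. Promoters came from RefSeq (GRCm38.p6), by symbol.

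All tests were run in R 4.3.3 with limma 3.58.1 (trended eBayes, two-sided), and genes were called at 0.05 after Benjamini-Hochberg adjustment over all genes. Pair differences of all 171 pairs were fitted with 1 mean per line (127 residual degrees of freedom), which gave the CC053/Unc response and its contrast with the equally weighted mean of the other lines. Vehicle arrays were fitted the same way. Every mouse is a separate animal. A list is described by counts and its median, with no set test. Pairs were used because the labels say that mice were treated in pairs. As a check, deviations of the CC053/Unc mice of a pair correlated at 0.056, 0.182 and 0.073. Those of vehicle and treated mice from different pairs correlated at -0.177 to 0.136. Over the pairs of all lines the mean was 0.036, so partners were hardly more alike than other mice. Summaries and figures used Python 3.11.15, numpy 2.4.6, pandas 2.3.3 and matplotlib 3.10.9.

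Tested on simulated data of 9093 genes, the response fit recovered 21 of 66 genes changed by 0.5 on the log2 scale, 49 of 67 changed by 1 and 65 of 67 changed by 2, with 3 of 8893 unchanged genes called. The simulated mice had the spread of vehicle mice within lines in both groups, and none was made to stand apart. In the real CC053/Unc arrays the median gene SD was 0.33 with TAK-875 and 0.16 with vehicle, so these rates need not hold there.

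The members and the 39 gene lists, of which 794 of 1044 entries were measured, were chosen with earlier results of these data known. The text names the 15 genes that rose most and the 10 that fell most among calls of 1 sign in all 3 pairs, the 8 largest each way against other lines and in vehicle level, up to 5 members per list, 18 genes of an earlier report whatever their result, and the 5 with the largest gap to the next line. Atf3, Pdk4, Keg1 and Ngp were named after their values were seen. The alternatives tried were array centring, quantile normalization, the mean of a gene's probe sets, leaving out the dimmest 25% of genes, no pairing, the line as unit, the 10 nearest lines, CC053/Unc alone, each pair left out, and poorly correlating pairs of other lines left out.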

Additional observations from a re-analysis of the deposited data

Results flagged for a closer look

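Genes are listed here because their response to TAK-875 in CC053/Unc differed from the mean response of the other 43 lines in limma's test of that difference, at an adjusted p of 0.05 over all genes, and were the 8 largest differences each way. All values are CC053/Unc minus the other lines' mean, on the log2 scale. The response was higher in CC053/Unc by 4.42 in Orm2, 3.80 in Orm3, 2.26 in Asic5, 2.23 in Gadd45a, 2.16 in Socs3, 1.87 in Lepr, 1.78 in Bhlhe40 and 1.58 in Rif1. The difference was -1.81 in Amn, -1.75 in Ppp1r3b, -1.71 in Mcm10, -1.53 in H4c9, -1.51 in Gamt, -1.49 in Plekhf1, -1.47 in Mmab and -1.39 in Tada3. None of the 16 passed without pair 2. In Orm2 the treated mouse of pair 2 showed the smallest of the 3 differences, 3.54 against 4.87 and 3.61, while in Gadd45a it showed 6.25 against 0.64 and 0.31. No test of single outlying mice was made.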

How the results depend on the processing

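Leaving out 1 pair at a time gave 0 to 166 genes higher and 0 to 423 lower for the response (104 and 267 with all pairs), 0 to 111 higher and 0 to 356 lower against the other lines (22 and 72), and 1100 to 1394 higher and 399 to 446 lower in vehicle level (1901 and 691). Each 0 is without pair 2. Quantile normalization gave 169 higher for the response, and 53 higher and 127 lower against the other lines. The 3 pairs fitted alone gave 0 higher and 0 lower. Against the other lines, the mean of a gene's probe sets gave 38 higher, leaving out the dimmest 25% of genes gave 13 higher, centring gave 41 lower, and the 10 nearest lines gave 5 higher and 8 lower. In vehicle level, centring gave 918 higher and 1244 lower, and the line as the unit 18 and 9. For these shifts the cause was not tested, except that fewer samples entered where pairs or lines were left out. A planned setting without pairs that hold an array correlating below 0.95 with its group could not be run, because it removes all CC053/Unc pairs, whose treated arrays had medians of 0.934, 0.892 and 0.938. Leaving out only the 21 such pairs of other lines, chosen after seeing the data, gave 309 higher and 660 lower for the response, and 238 and 552 against the other lines. Without the replicate block of pairs, 82 genes were higher and 225 lower for the response, and 20 and 57 against the other lines.

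No called gene among those tried here changed sign in any setting. Of those not called, Abcb11 went from 0.01 to -0.42 without pair 1 and -0.09 without pair 3, Abcc2 from -0.02 to 0.58 without pair 2, and Abcc3 from -0.07 to 0.05 without pair 1. For the response, 43 named genes gave 422 values, of which 346 stayed on their side of the threshold, 59 lost the call and 17 gained one. Against the other lines 34 of 172 values lost the call, and in vehicle level 13 of 195. The number of arrays, with 3 pairs in 1 line, limits what could be called. In simulated data without an outlying mouse, 21 of 66 changes of 0.5 were recovered.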

Other observations

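A few genes, chosen after their values were seen, differed in direction between the 3 pairs. Igfbp1, an insulin-suppressed secreted protein, differed between the TAK-875 and vehicle mice by -1.79, 1.55 and -0.60 in pairs 1 to 3, and the cell cycle inhibitor Cdkn1a by -2.21, 2.49 and 0.46. Lpin1 differed by -1.81, 0.39 and -0.79 and Ddit4, a brake on mTORC1, by -1.66, 0.63 and -0.36. In all 4 the treated mouse was lower than its partner in pair 1 and higher in pair 2, and none was called (adjusted p = 0.89, 0.90, 0.47 and 0.61). Over the 18 glucocorticoid targets the median was -0.69, 0.80 and 0.04, and over the 17 genes of gluconeogenesis and fasting -0.38, 0.00 and -0.01. Derl3, of protein degradation in the endoplasmic reticulum, went the other way, at 2.48, -0.66 and 2.45 (adjusted p = 0.24).

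Genes in which CC053/Unc was the highest or the lowest of the 44 lines were counted. In the response it was the highest line for 321 genes and the lowest for 776, where the median line was each for 107. In vehicle level it was the highest for 708 genes and the lowest for 205, against medians of 151 and 135. The largest vehicle gaps to the next line were 1.08 in Zbtb16, 1.03 in Mogat1, 0.81 in Ccn4, a secreted matrix protein, 0.79 in Tmem140 and 0.75 in Gnb1l. With TAK-875, Tmem140 differed by -0.67, -0.61 and -1.43 in pairs 1 to 3 (adjusted p = 0.043) and Ccn4 by -1.78, -1.22 and 0.74 (adjusted p = 0.045), its groups overlapping. Both comparisons use the same vehicle arrays.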
